A study of Homo sapiens with 21 samples.

Results

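The 10 genes described here encode the steps of serotonin production that define enterochromaffin cells, and their regulators. They were taken from the count table by gene symbol, which gave 10 of 62699 genes with 1 entry each. TPH1, TPH2 and DDC carry out synthesis, and GCH1 starts the synthesis of a cofactor. SLC18A1 and SLC18A2 load vesicles, LMX1A and FEV are transcription factors, ADRA2A is a receptor and TRPA1 an ion channel. All 10 genes passed the filter on low counts and entered the tests. RNA was sequenced from islet cultures differentiated from H1, an established human embryonic stem cell line. The cells were unedited (WT) or had lost both copies of 1 gene, which gave the genotypes ISL1-/-, PAX6-/- and PDX1-/-. These genes encode transcription factors of pancreatic endocrine development. Every culture received a lentivirus on day 11, carrying either ISL1 joined to the blue fluorescent protein BFP through an IRES2 element or BFP alone. BFP-positive cells were sorted on day 18. The 21 libraries form 8 groups. There are 2 libraries each of BFP-labelled WT, ISL1-labelled WT and ISL1-labelled PDX1-/-, and 3 biological replicates of every other group. The labels do not say how many clones represent a knockout.

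Serotonin is made from tryptophan in 2 steps. Tryptophan hydroxylase, TPH1 in gut and endocrine cells and TPH2 in neurons, adds a hydroxyl group in the rate-limiting step, with tetrahydrobiopterin as cofactor. GCH1 catalyses the first step toward that cofactor. DDC, an aromatic amino acid decarboxylase, then forms serotonin, and the vesicular monoamine transporters SLC18A1 and SLC18A2 concentrate it in secretory granules. In the gut, enterochromaffin cells express TPH1 with LMX1A and FEV, and sense irritants through the channel TRPA1 and catecholamines through the adrenergic receptor ADRA2A. Cells with such a serotonin program also arise in islet differentiation of human stem cells.

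The libraries held from 36.8 to 60.2 M counts (1e6 counts), with a median of 50.4 M. A count of 0 allows up to 3 counts, and such a floor covers counting error only. Levels are counts per 1e6 counts of a library (CPM) after TMM scaling. ISL1 itself ranged from 71.6 to 96.8 CPM in ISL1-labelled and from 73.7 to 82.4 CPM in BFP-labelled ISL1-/- libraries, against 306 and 519 CPM in BFP-labelled WT. Counts of ISL1 thus overlapped between the vector labels of ISL1-/-, and they did so in PAX6-/- and PDX1-/- too. In WT the ISL1-labelled libraries, at 337 and 361 CPM, lay between the BFP-labelled ones. The vector groups are therefore named by their labels, and each direction given for the vector rests on them. PAX6 counts in BFP-labelled PAX6-/- overlapped those of BFP-labelled WT, and PDX1 in BFP-labelled PDX1-/- (103, 116 and 113 CPM) was above BFP-labelled WT (80 and 102 CPM), so neither shows the knockout. A pair of libraries stood apart by mitochondrial share. ISL1-labelled PAX6-/- replicate 3 had 3.16% and ISL1-labelled PDX1-/- replicate 4 had 3.84%, against 1.28% to 1.93% in the other libraries. Markers of the islet label were present in WT, where BFP-labelled libraries had 43781 ± 10657 CPM of GCG and 6418 ± 1085 CPM of INS (SD, n = 2).

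The sequences just upstream of TPH1, DDC, LMX1A and FEV are shown because these genes, with SLC18A1, were those called higher in BFP-labelled PDX1-/- than in WT. Each run is the 250 bases before the start site in RefSeq (assembly GRCh38.p14), on the gene's strand. LMX1A and DDC have another start in that table, and the one that matches the count table's gene start is printed. Capitals mark the homeodomain core TAAT on either strand, the core to which factors such as LMX1A, ISL1, PAX6 and PDX1 bind.
TPH1 (chr11:18046270-18046519, minus strand): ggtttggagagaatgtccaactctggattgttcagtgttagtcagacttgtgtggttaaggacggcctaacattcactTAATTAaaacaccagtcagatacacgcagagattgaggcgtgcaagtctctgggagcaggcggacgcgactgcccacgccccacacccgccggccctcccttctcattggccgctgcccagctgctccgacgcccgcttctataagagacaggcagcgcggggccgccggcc
DDC (chr7:50565406-50565655, minus strand): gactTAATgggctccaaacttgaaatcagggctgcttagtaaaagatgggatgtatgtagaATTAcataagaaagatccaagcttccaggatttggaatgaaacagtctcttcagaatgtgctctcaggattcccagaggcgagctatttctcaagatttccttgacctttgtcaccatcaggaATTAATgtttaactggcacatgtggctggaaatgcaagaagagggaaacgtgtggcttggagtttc
LMX1A (chr1:165356716-165356965, minus strand): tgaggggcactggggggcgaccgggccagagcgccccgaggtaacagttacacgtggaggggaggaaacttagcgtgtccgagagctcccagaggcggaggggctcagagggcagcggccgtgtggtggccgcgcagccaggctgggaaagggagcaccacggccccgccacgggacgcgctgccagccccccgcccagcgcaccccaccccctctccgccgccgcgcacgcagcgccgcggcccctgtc
FEV (chr2:218985185-218985434, minus strand): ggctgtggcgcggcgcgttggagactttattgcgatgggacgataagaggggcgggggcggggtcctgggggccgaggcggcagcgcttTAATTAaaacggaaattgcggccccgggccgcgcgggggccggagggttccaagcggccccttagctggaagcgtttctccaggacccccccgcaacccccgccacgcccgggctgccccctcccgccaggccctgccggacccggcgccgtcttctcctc
TAAT stood on either strand 2 times upstream of TPH1, 2 times upstream of FEV and 4 times upstream of DDC. The LMX1A run had 0. Of 35116 promoter runs of this length, 47.4% held TAAT. The palindrome TAATTA, which contains TAAT on both strands, was in the runs of TPH1 and FEV, and in 4.35% of all runs. GGAA, the core bound by ETS factors such as FEV, was found 7 times in the DDC run, 3 times in the FEV run, 2 times in the LMX1A run and 0 times in the TPH1 run. It was in 92.7% of all runs. The run before the other DDC start, which is not printed, held TAAT 1 time and GGAA 2 times. That before the other LMX1A start held them 0 and 2 times. Which start these cells use was not tested. These are matches of letters only.

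**Figure D1:**
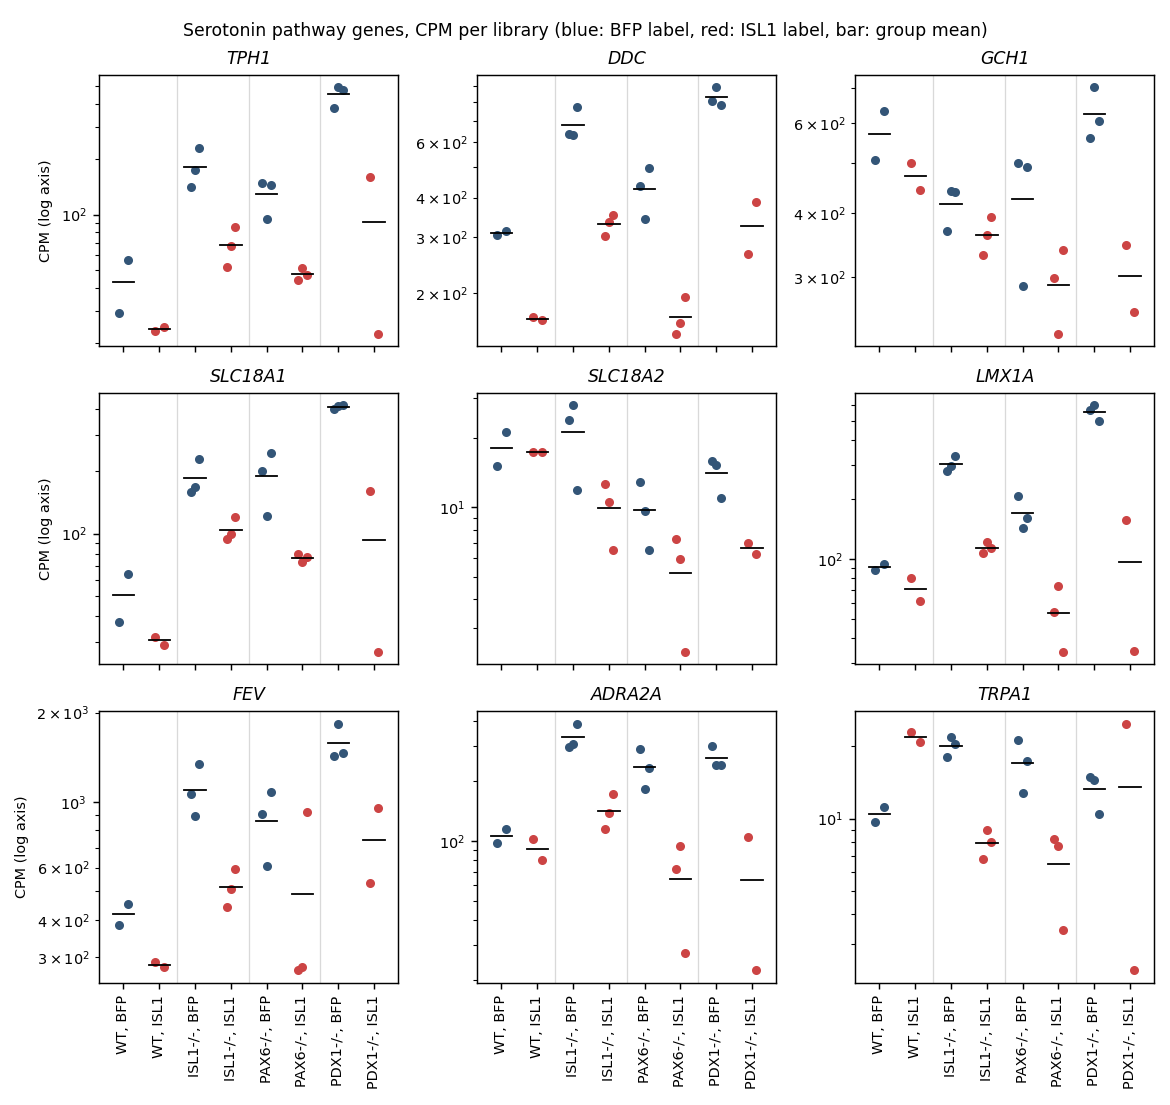
Each panel plots 1 gene in CPM on a log axis, with a point per library and a bar at the group mean, for BFP-labelled (blue) and ISL1-labelled (red) libraries of each genotype. BFP-labelled PDX1-/- libraries are highest for TPH1, SLC18A1 and LMX1A, and the 2 ISL1-labelled PDX1-/- libraries lie far apart for TPH1, SLC18A1, LMX1A, ADRA2A and TRPA1.

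The first comparison sets each BFP-labelled knockout against BFP-labelled WT and asks how loss of each factor alters the pathway. TPH1, DDC, SLC18A1 and LMX1A rose in ISL1-/-, and these 4 genes and FEV rose in PDX1-/-, with TPH1 10.5-fold higher there. In PAX6-/- the vesicle transporter SLC18A1 rose. Of the 10 genes, 4, 1 and 5 were called higher in ISL1-/-, PAX6-/- and PDX1-/-, and 0 were called lower in any of them. The calls are at an adjusted p under 0.05 in edgeR's quasi-likelihood test. Of all genes tested, 1.67%, 2.25% and 4.03% were called higher in these knockouts, and 5.59%, 5.51% and 9.68% in either direction. The median log2 fold change over the members other than TPH2 was 1.40, 0.91 and 1.42, against 0.02, 0.03 and 0.03 over all genes. Every knockout library was above both WT libraries for 7, 7 and 6 of the 10 genes, as it was for 26%, 25.1% and 27% of all genes. The 3 comparisons share the 2 WT libraries. In sorted bulk cells, more cells of a type and more RNA per cell cannot be told apart.

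TPH1 (ENSG00000129167.10, chr11:18017555-18046269, minus strand), the rate-limiting enzyme, had 29.2 and 56.6 CPM in the BFP-labelled WT libraries. It had 141, 174 and 229 CPM in ISL1-/-, 148, 94.1 and 145 CPM in PAX6-/-, and 381, 495 and 475 CPM in PDX1-/-. No knockout library fell into the WT range, and every PDX1-/- library was above every other BFP-labelled library. The log2 fold change was 2.08 (SE 0.54, adjusted p 0.0309) in ISL1-/- and 3.39 (SE 0.58, adjusted p 0.0016) in PDX1-/-. In PAX6-/- it was 1.59 (SE 0.53, adjusted p 0.0934). The ISL1-/- call of TPH1 was lost without replicate 2 or 3 of ISL1-/- or either WT library (adjusted p up to 0.308). The PDX1-/- call held in all 5 such fits (adjusted p up to 0.0465).

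TPH2 (chr12:71938845-72186618, plus strand), the neuronal hydroxylase, was close to absent. It had 17 and 1 counts in BFP-labelled WT, 0 to 1 in ISL1-/-, 0 to 2 in PAX6-/- and 0 in all 3 PDX1-/- libraries. In ISL1-labelled libraries it had 0 and 8 counts in WT, 0, 6 and 13 in ISL1-/-, 0 to 1 in PAX6-/-, and 1 and 3 in PDX1-/-. Most libraries were thus at or under the floor, no comparison of TPH2 was called, and its fold changes are not given. TPH2 shares 105 exon bases with TRHDE, which had from 35 to 511 counts.

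DDC (ENSG00000132437.18, chr7:50458436-50565405, minus strand), which forms serotonin from the TPH product, had 304 and 314 CPM in BFP-labelled WT. It had 633, 628 and 774 CPM in ISL1-/-, 436, 343 and 497 CPM in PAX6-/-, and 808, 894 and 784 CPM in PDX1-/-. All 9 knockout libraries were above the WT range, and the replicates lay closer together than for TPH1. DDC rose by 1.13 (SE 0.22, adjusted p 0.00444) in ISL1-/- and by 1.42 (SE 0.22, adjusted p 0.00079) in PDX1-/- on the log2 scale. In PAX6-/- the value was 0.46 (SE 0.21, adjusted p 0.242). The ISL1-/- call of DDC was lost without either WT library (adjusted p 0.0728 and 0.06), and the PDX1-/- call held in all 5 fits.

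GCH1 (chr14:54842008-54902826, minus strand), the cofactor enzyme, did not follow the synthesis genes. It had 508 and 632 CPM in BFP-labelled WT, 370, 442 and 439 CPM in ISL1-/-, 500, 288 and 491 CPM in PAX6-/-, and 560, 705 and 606 CPM in PDX1-/-. The PDX1-/- libraries overlapped WT, and the ISL1-/- and PAX6-/- libraries were below both WT libraries. The log2 fold changes were -0.45 (SE 0.24), -0.42 (SE 0.24) and 0.13 (SE 0.24), with adjusted p of 0.333, 0.384 and 0.838.

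The 2 vesicular transporters differed in level and in pattern. SLC18A1 (chr8:20144855-20183206, minus strand), the transporter of endocrine cells, had 37.6 and 64.1 CPM in BFP-labelled WT. It had 159, 167 and 230 CPM in ISL1-/-, 200, 121 and 245 CPM in PAX6-/-, and 397, 414 and 416 CPM in PDX1-/-. All 9 knockout libraries exceeded WT, and the PDX1-/- libraries were the highest and the closest together. SLC18A1 rose by 1.86 (SE 0.49, adjusted p 0.0335), 1.89 (SE 0.49, adjusted p 0.0322) and 3.01 (SE 0.52, adjusted p 0.00178) on the log2 scale. It was the only one of the 10 genes called in PAX6-/-. The PAX6-/- call was lost without replicate 1 or 3 of PAX6-/- or either WT library (adjusted p up to 0.32), and the ISL1-/- call in all 5 fits that left out a library compared (up to 0.316). The PDX1-/- call held in all 5 (up to 0.049). SLC18A2 (chr10:117241093-117279430, plus strand), the other transporter, had 15.2 and 21.2 CPM in WT and 24.1, 27.8 and 11.9 CPM in ISL1-/-. It had 12.9, 9.68 and 6.53 CPM in PAX6-/-, and 15.9, 15.3 and 11 CPM in PDX1-/-. None of its 3 comparisons was called, with log2 fold changes of 0.23, -0.90 and -0.37. SLC18A2 shares 2157 exon bases with PDZD8 on the opposite strand. The strand setting of the counts is not given, so it is not known whether reads of the 2 genes over these bases were separated.

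LMX1A (chr1:165201867-165356715, minus strand), a LIM homeodomain factor that activates TPH1 in enterochromaffin cells, had 88.1 and 93.9 CPM in BFP-labelled WT. It had 279, 296 and 333 CPM in ISL1-/-, 209, 143 and 161 CPM in PAX6-/-, and 565, 597 and 496 CPM in PDX1-/-. The 4 BFP-labelled genotypes did not overlap for LMX1A, in the order PDX1-/-, ISL1-/-, PAX6-/- and WT. LMX1A rose by 1.74 (SE 0.44, adjusted p 0.0263) in ISL1-/- and by 2.60 (SE 0.46, adjusted p 0.00195) in PDX1-/- on the log2 scale, and differed by 0.91 (SE 0.42, adjusted p 0.252) in PAX6-/-. The ISL1-/- call of LMX1A was lost in all 5 fits that left out a library compared (adjusted p up to 0.218), and the PDX1-/- call held in all 5 (up to 0.0434). FEV (ENSG00000163497.3, chr2:218981087-218985184, minus strand), an ETS factor of serotonergic cells and endocrine precursors, had 385 and 451 CPM in WT. It had 1061, 896 and 1342 CPM in ISL1-/-, 906, 609 and 1075 CPM in PAX6-/-, and 1432, 1834 and 1456 CPM in PDX1-/-. Every knockout library was above WT. FEV rose by 1.91 (SE 0.45, adjusted p 0.012) in PDX1-/- on the log2 scale, a call lost without either WT library (adjusted p 0.148 and 0.0847). In ISL1-/- and PAX6-/- it differed by 1.40 (SE 0.44, adjusted p 0.0761) and 1.05 (SE 0.43, adjusted p 0.19).

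ADRA2A (chr10:111077029-111080907, plus strand), the adrenergic receptor for catecholamines, had 97.8 and 115 CPM in BFP-labelled WT. It had 298, 309 and 389 CPM in ISL1-/-, 289, 182 and 234 CPM in PAX6-/-, and 299, 242 and 240 CPM in PDX1-/-. All 9 knockout libraries were above WT, but none of the 3 comparisons was called, with log2 fold changes of 1.64 (SE 0.51, adjusted p 0.0702), 1.15 (SE 0.50, adjusted p 0.212) and 1.29 (SE 0.50, adjusted p 0.122). ADRA2A was highest on average in ISL1-/-, unlike TPH1, DDC, SLC18A1, LMX1A and FEV, which were highest in PDX1-/-. TRPA1 (chr8:72019917-72075584, minus strand), the irritant channel, was low. It had 9.65 and 11.2 CPM in WT, 18.0, 21.8 and 20.5 CPM in ISL1-/-, 21.2, 12.8 and 17.3 CPM in PAX6-/-, and 14.9, 14.4 and 10.4 CPM in PDX1-/-. Its log2 fold changes were 0.95, 0.72 and 0.35, and none was called (adjusted p 0.406, 0.569 and 0.805). TRPA1 shares 981 exon bases with MSC-AS1 on the opposite strand, which had from 39 to 126 counts against 79 to 1407 of TRPA1.

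These counts of calls changed with the WT libraries and with libraries outside the comparisons. Without either BFP-labelled WT library, which leaves 1 WT library assumed to vary like the other groups, 0 members were called in ISL1-/- and PAX6-/- and 4 in PDX1-/-. Of all genes, 1.66%, 0.998% and 2.66% were called in the 3 knockouts without WT replicate 1, and 1.82%, 1.01% and 3.29% without WT replicate 3. Without both libraries of high mitochondrial share, an alternative chosen after seeing the data, the counts of members called were 7, 7 and 7, though neither library is in these comparisons. In that fit 23.5%, 23.5% and 27.6% of all genes were called. In ISL1-/- and PAX6-/- these were TPH1, DDC, SLC18A1, LMX1A, FEV, ADRA2A and TRPA1, all higher. In PDX1-/- they were the first 6 of these, higher, and TPH2, lower at the counts given above. Markers of other cell types differed between the same groups. The 11 alpha markers summed to 43186 to 58054 CPM in BFP-labelled WT, 1970 to 2039 CPM in ISL1-/-, 2257 to 3315 CPM in PAX6-/- and 18332 to 23207 CPM in PDX1-/-, and 6, 4 and 4 of them were called lower and 0, 0 and 1 (IRX1) higher. In the fit of all libraries, 3.92%, 3.26% and 5.65% of all genes were called lower in these knockouts, and 1.67%, 2.25% and 4.03% higher. Of the 3 knockouts, PDX1-/- had the alpha sum nearest to WT and the beta sum farthest from it. The 12 beta markers summed to 7965 to 9005 CPM in WT, 2191 to 2872 CPM in ISL1-/-, 1200 to 1566 CPM in PAX6-/- and 931 to 1028 CPM in PDX1-/-, and 4, 5 and 6 were called lower and 1 (SIX3), 0 and 1 (PCSK1) higher. In PAX6-/- the 5 epsilon and gamma cell markers summed to 3078 to 4634 CPM, against 292 to 298 CPM in WT, with 3 called higher and 2 lower. GHRL, the ghrelin gene of epsilon cells, had a mean of 3258 CPM against 79.1 CPM there (log2 fold change 5.36, adjusted p 0.000627), and NEUROG3, a factor of endocrine progenitors, 1050 against 147 CPM (2.83, adjusted p 0.000467). CPM are shares of a library, and the part of these markers in the results was not tested.

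**Figure D2:**
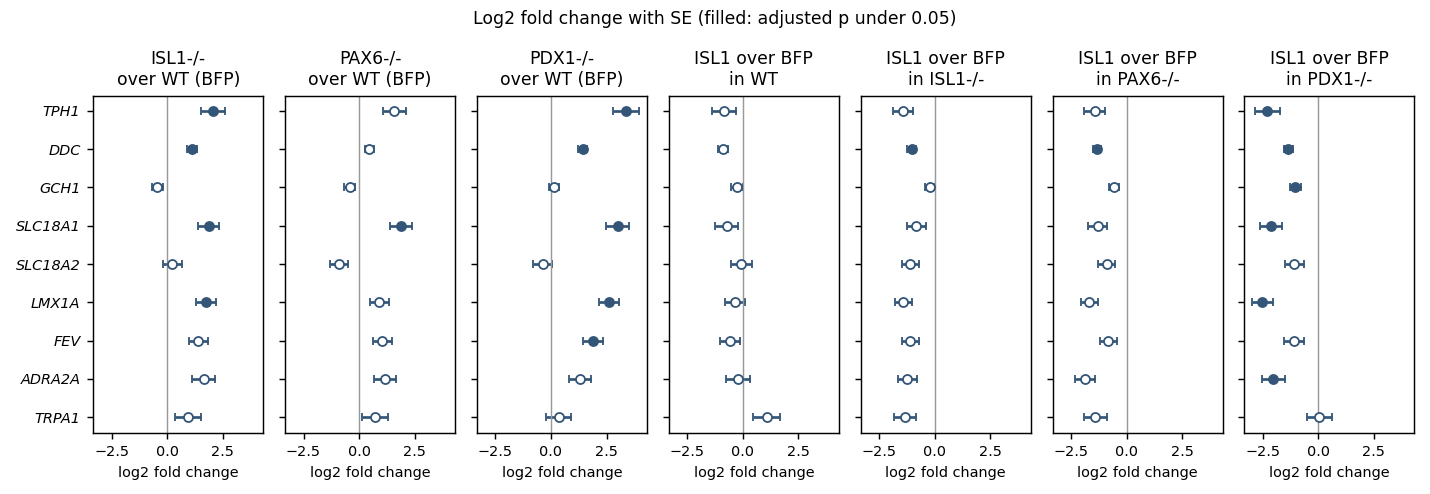
Each panel plots the log2 fold change of 9 genes (all but TPH2) with its SE for 1 comparison, filled where the adjusted p is under 0.05. TPH1, DDC, SLC18A1, LMX1A, FEV, ADRA2A and TRPA1 are above 0 in the 3 knockout panels, and below 0 in the panels of the vector in ISL1-/- and PAX6-/-.

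The second comparison sets ISL1-labelled against BFP-labelled libraries within each genotype and asks how added ISL1 moves the pathway. DDC fell in ISL1-/-, PAX6-/- and PDX1-/-. In PDX1-/- TPH1, GCH1, SLC18A1, LMX1A and ADRA2A fell too, by 4.93-fold for TPH1 and 5.74-fold for LMX1A. Of the 10 genes, 0, 1, 1 and 6 were called in WT, ISL1-/-, PAX6-/- and PDX1-/-, all lower. Of all genes, 0.027%, 0.382%, 0.355% and 12.5% were called, and 0%, 0.131%, 0.185% and 4.33% were called lower. The median log2 fold change over the members other than TPH2 was -0.37, -1.10, -1.34 and -1.35, against 0.00, 0.03, 0.11 and 0.13 over all genes. At an unadjusted p under 0.05, 1, 7, 9 and 8 members passed, in the same order, as did 3.82%, 7.61%, 10.3% and 30.5% of all genes. In WT, where edgeR called 0, DESeq2 called 1 member and 0.251% of all genes, and limma 2 members and 2.01%. Every ISL1-labelled library was below every BFP-labelled one for 6, 7, 6 and 8 of the 10 genes, as for 20.8%, 11.9%, 8.44% and 17.2% of all genes.

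TPH1 had 23.3 and 24.3 CPM in ISL1-labelled WT, 51.6, 67.2 and 85.0 CPM in ISL1-/-, and 44.1, 50.9 and 47.1 CPM in PAX6-/-. The 2 ISL1-labelled PDX1-/- libraries differed, with 160 CPM in replicate 2 and 22.5 CPM in replicate 4. In each genotype, the ISL1-labelled libraries were below all BFP-labelled ones. The log2 fold changes of TPH1 were -0.85 (SE 0.55, adjusted p 1) in WT, -1.41 (SE 0.45, adjusted p 0.281) in ISL1-/- and -1.44 (SE 0.46, adjusted p 0.249) in PAX6-/-. In PDX1-/- TPH1 fell by 2.30 (SE 0.55, adjusted p 0.0131). Without replicate 4 the value was -1.49 and the call was lost (adjusted p 0.0551). Without replicate 2 it was -4.33 (adjusted p 5.95e-06).

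DDC had 168 and 164 CPM in ISL1-labelled WT, 302, 335 and 352 CPM in ISL1-/-, 149, 161 and 195 CPM in PAX6-/-, and 265 and 386 CPM in PDX1-/-. In all 4 genotypes these values were below every BFP-labelled library of the same genotype, and DDC was the only one of the 10 genes called in 3 of them. It fell by 1.04 (SE 0.19, adjusted p 0.0176) in ISL1-/-, 1.34 (SE 0.19, adjusted p 0.00487) in PAX6-/- and 1.35 (SE 0.22, adjusted p 0.00131) in PDX1-/- on the log2 scale. In WT its change was -0.90 (SE 0.23), with an unadjusted p of 0.00112 and an adjusted p of 0.446. The ISL1-/- call of DDC was lost in all 6 fits that left out an ISL1-/- library (adjusted p up to 0.139). The PAX6-/- and PDX1-/- calls held in all such fits, and without PDX1-/- replicate 4 the DDC value was -1.64 (adjusted p 0.000716).

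GCH1 had 500 and 443 CPM in ISL1-labelled WT, 332, 362 and 394 CPM in ISL1-/-, 299, 233 and 339 CPM in PAX6-/-, and 347 and 257 CPM in PDX1-/-. It overlapped the BFP-labelled libraries in ISL1-/- and PAX6-/- and lay below them in WT and PDX1-/-. GCH1 fell by 1.05 (SE 0.25, adjusted p 0.0141) in PDX1-/-. GCH1 lost this call when BFP-labelled replicate 2 (adjusted p 0.0546) or ISL1-labelled replicate 4 (-0.84, adjusted p 0.171) was left out. In WT, ISL1-/- and PAX6-/- the log2 fold changes of GCH1 were -0.27, -0.20 and -0.55, none of them called.

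SLC18A1 had 31.9 and 29.2 CPM in ISL1-labelled WT, 94.2, 99.7 and 120 CPM in ISL1-/-, and 79.5, 73.0 and 77.2 CPM in PAX6-/-. In PDX1-/- it had 160 CPM in replicate 2 and 26.9 CPM in replicate 4. As with TPH1, no ISL1-labelled library reached the BFP-labelled range of its genotype. SLC18A1 fell by 2.13 (SE 0.50, adjusted p 0.0124) in PDX1-/-, and without replicate 4 the value was -1.35 with the call lost (adjusted p 0.0557). In WT, ISL1-/- and PAX6-/- the log2 fold changes were -0.73 (SE 0.51), -0.82 (SE 0.41) and -1.30 (SE 0.42), none of them called. SLC18A2 had 17.4 and 17.4 CPM in ISL1-labelled WT, 12.6, 10.6 and 6.54 CPM in ISL1-/-, 7.25, 5.99 and 2.35 CPM in PAX6-/-, and 7 and 6.28 CPM in PDX1-/-. Its log2 fold changes were -0.06, -1.10, -0.90 and -1.08, and none was called.

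LMX1A had 80.0 and 61.2 CPM in ISL1-labelled WT, 107, 122 and 114 CPM in ISL1-/-, and 54.2, 73.0 and 34.0 CPM in PAX6-/-. In PDX1-/- it had 158 CPM in replicate 2 and 34.4 CPM in replicate 4. All were below the BFP-labelled libraries of their genotype. LMX1A fell by 2.52 (SE 0.46, adjusted p 0.00279) in PDX1-/-, and the call held in all 5 fits that left out a PDX1-/- library, with -1.80 (adjusted p 0.00812) without replicate 4 and -4.02 (adjusted p 2.73e-06) without replicate 2. In WT, ISL1-/- and PAX6-/- the changes of LMX1A were -0.37 (SE 0.45), -1.41 (SE 0.38) and -1.67 (SE 0.38), with adjusted p of 1, 0.149 and 0.0788. FEV had 287 and 277 CPM in ISL1-labelled WT, 441, 508 and 593 CPM in ISL1-/-, 270, 277 and 920 CPM in PAX6-/-, and 531 and 950 CPM in PDX1-/-. PAX6-/- replicate 3, a library of high mitochondrial share, overlapped the BFP-labelled range, unlike the other ISL1-labelled libraries. The changes of FEV were -0.57, -1.10, -0.82 and -1.09, and none was called (adjusted p 1, 0.343, 0.47 and 0.103). Without PAX6-/- replicate 3 the PAX6-/- value was -1.66 and was called (adjusted p 0.0177).

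ADRA2A had 102 and 80.7 CPM in ISL1-labelled WT, 115, 138 and 172 CPM in ISL1-/-, 72.4, 94.0 and 27.4 CPM in PAX6-/-, and 105 and 22.4 CPM in PDX1-/-. The labels overlapped in WT and were separate in the knockouts. ADRA2A fell by 2.03 (SE 0.52, adjusted p 0.019) in PDX1-/-, and without replicate 4 the value was -1.31 with the call lost (adjusted p 0.204). In ISL1-/- and PAX6-/- the changes of ADRA2A were -1.23 (SE 0.44, adjusted p 0.36) and -1.86 (SE 0.44, adjusted p 0.102). TRPA1 had 22.8 and 20.8 CPM in ISL1-labelled WT, above both BFP-labelled libraries, and 6.78, 8.96 and 7.99 CPM in ISL1-/-, 8.24, 7.66 and 3.44 CPM in PAX6-/-, and 24.8 and 2.34 CPM in PDX1-/-. In ISL1-/- and PAX6-/- these values were below every BFP-labelled library. The log2 fold changes of TRPA1 were 1.07 (SE 0.62, adjusted p 1) in WT, -1.34 (SE 0.51, adjusted p 0.423) in ISL1-/- and -1.41 (SE 0.51, adjusted p 0.336) in PAX6-/-. In PDX1-/- it was 0.04 (SE 0.56). The 2 PDX1-/- libraries gave opposite directions, with -2.51 (adjusted p 0.000474) without replicate 2 and 0.91 (adjusted p 0.248) without replicate 4.

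In PAX6-/- same-numbered libraries of the 2 labels deviated together. A replicate block by the description's number, set over all libraries, gave 6 members called, all lower, and 2.23% of all genes. TPH1 fell by 1.44 (adjusted p 0.00392), DDC by 1.34 (adjusted p 0.000775), SLC18A1 by 1.26 (adjusted p 0.00536), LMX1A by 1.68 (adjusted p 0.00236), ADRA2A by 1.87 (adjusted p 0.0119) and TRPA1 by 1.44 (adjusted p 0.0135) in that fit. With the number in the title as the block, 1 member was called, DDC, and 0.352% of all genes. The 2 numbers are the same in PAX6-/- and differ only in WT and PDX1-/-, whose samples they were not found to pair. The 2 fits thus differ in how those libraries are numbered. ISL1-labelled PDX1-/- replicate 4 is the only library numbered 4 in the descriptions. The block by that number therefore fits this library by itself, much as if it were left out. The fit without it is given below, and the part of the PAX6-/- pairing in the 6 calls was not tested. The counts of members called also moved with single libraries. In PDX1-/- the count was 2 (2.41% of all genes) without ISL1-labelled replicate 4, which leaves 1 library in its group, assumed to vary like the other groups. Without both libraries of high mitochondrial share the counts of members called were 2, 8, 8 and 7 over the 4 genotypes, against 1.32%, 4.93%, 4.97% and 8.92% of all genes. For ISL1-/-, 2 members (0.884% of all genes) were called without PAX6-/- ISL1-labelled replicate 3, and 4 without either ISL1-labelled PDX1-/- library (1.27% without replicate 2 and 1.32% without replicate 4). For PAX6-/-, 2 members (0.214% of all genes) were called without its own ISL1-labelled replicate 3, and 6 without either ISL1-labelled PDX1-/- library (1.8% and 1.86%).

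Alpha and beta markers differed strongly between the 2 ISL1-labelled PDX1-/- libraries. Their alpha markers summed to 15531 and 122251 CPM and their beta markers to 902 and 26410 CPM. For the vector effect in PDX1-/-, 3 of 11 alpha markers were called higher and 1 lower, and 4 of 12 beta markers higher and 1 lower. Among all genes, 12.5% were called for this effect, and 4.33% were called lower. Of 7 delta markers 4 were called higher (49.7 to 80 CPM summed in BFP-labelled and 258 to 1411 CPM in ISL1-labelled libraries), of 6 duct markers 4 (744 to 864 and 1542 to 3858 CPM), of 6 liver and gut markers 5 (1776 to 2063 and 2868 to 11118 CPM), and 0 genes of these 3 lists were called lower. CHGA, a general endocrine granule protein, had 24186 CPM in replicate 2 and 22940 CPM in replicate 4, against 43324 to 48918 CPM in BFP-labelled PDX1-/- libraries. Relative to the BFP-labelled mean, the log2 difference of TPH1 was -1.48 in replicate 2 and -4.31 in replicate 4, whereas that of FEV was -1.56 and -0.72 and that of DDC -1.64 and -1.10. Thus TPH1, SLC18A1, LMX1A and ADRA2A were far lower in replicate 4 than in replicate 2, and FEV and DDC were higher. The part of these markers in the values was not tested.

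The vector effect of each knockout was also set against that of WT. For the 10 genes, 0 differences were called in ISL1-/-, PAX6-/- and PDX1-/- by edgeR, against 0.00386%, 0% and 1.19% of all genes. At an unadjusted p under 0.05, 2, 3 and 3 members passed, as did 2.97%, 3.54% and 16% of all genes. In PDX1-/- DESeq2 called 1 member and 4.29% of all genes. TRPA1 had the lowest p in ISL1-/- and PAX6-/- of the members, with differences of -2.41 (SE 0.80, unadjusted p 0.00793, adjusted p 1) and -2.47 (SE 0.81, unadjusted p 0.0068, adjusted p 0.894). In PDX1-/- it was LMX1A, with -2.16 (SE 0.62, unadjusted p 0.00296, adjusted p 0.103). Without ISL1-labelled PDX1-/- replicate 2, 5 members were called in PDX1-/-, TPH1, SLC18A1, LMX1A, ADRA2A and TRPA1, with 30.8% of all genes. Without replicate 4 the count was 0, with 0.403% of all genes.

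Among ISL1-labelled libraries, the knockouts were set against ISL1-labelled WT. DDC rose by 0.99 (SE 0.22, adjusted p 0.0152) in ISL1-/-, the only call there, and SLC18A1 stood just outside with 1.78 (SE 0.49, adjusted p 0.0526). In PAX6-/- the call was SLC18A2, which fell by 1.74 (SE 0.42, adjusted p 0.0274). In PDX1-/- 0 members were called by edgeR, 6 passed an unadjusted p under 0.05 (16.1% of all genes), and 2 were called by DESeq2 (2.31%). Of all genes, 3.72%, 3.56% and 0.634% were called. DDC lost its ISL1-/- call without ISL1-/- replicate 2 or 3 or either WT library (adjusted p up to 0.163). SLC18A2 lost its PAX6-/- call without PAX6-/- replicate 3 (adjusted p 0.0644) or either WT library (up to 0.159). In PDX1-/- the 2 ISL1-labelled libraries disagreed, and 6 members and 32.2% of all genes were called without replicate 2. LMX1A was then -1.05 (adjusted p 0.0299) against 0.45 with both, and TPH1 was -0.09. Without replicate 4, TPH1 was 2.75 (adjusted p 0.000384) and SLC18A1 2.39 (adjusted p 0.000677), the 2 members called, with 2.33% of all genes.

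Between BFP-labelled knockouts, TPH1, DDC and LMX1A were lower in PAX6-/- than in PDX1-/-, and 0 members were called in the other pairs. The log2 fold changes of PAX6-/- over PDX1-/- were -1.80 (SE 0.46, adjusted p 0.0383) for TPH1, -0.96 (SE 0.19, adjusted p 0.00721) for DDC and -1.69 (SE 0.38, adjusted p 0.0188) for LMX1A. Of all genes, 3.04% were called in that pair, 2.46% between ISL1-/- and PAX6-/-, and 5.07% between ISL1-/- and PDX1-/-. TPH1 lost the call without any of the 6 libraries compared (adjusted p up to 0.198), DDC without PAX6-/- replicate 2 (0.0558), and LMX1A in 4 of 6 fits (up to 0.105). ISL1-/- against PDX1-/- had TPH1 at -1.31 (SE 0.45, adjusted p 0.11) and DDC at -0.29 (SE 0.19, adjusted p 0.467). At an unadjusted p under 0.05, 4 members passed in that pair and 3 in ISL1-/- against PAX6-/- (18% and 10.7% of all genes). DESeq2 called 0 and 1 (8.68% and 4.12%).

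**Figure D3:**
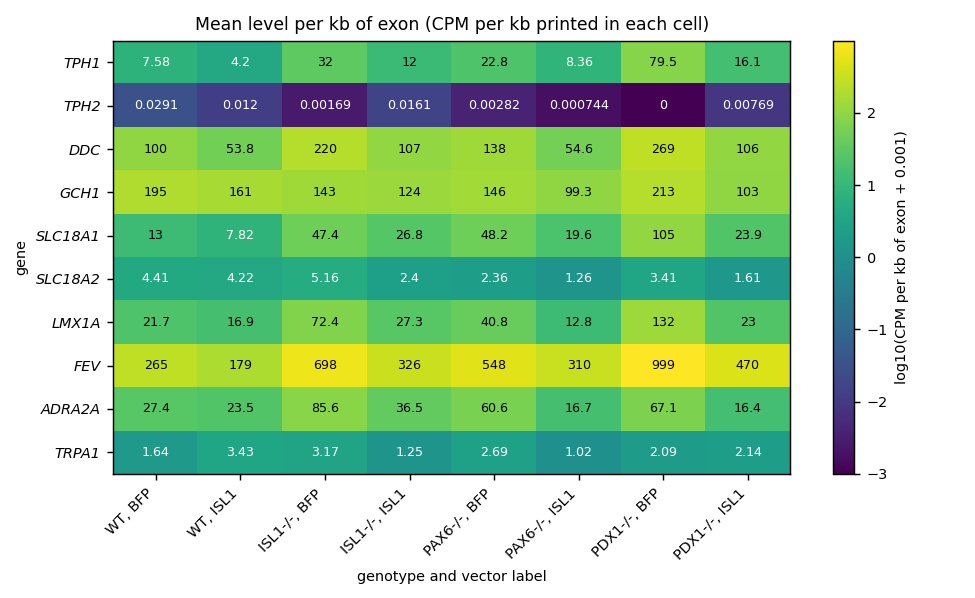
Each cell gives the mean level of a gene (vertical axis) in a group (horizontal axis) in CPM per kb of exon, coloured on a log10 scale of that value plus 0.001. FEV is the highest of the 10 genes in every group, and TPH2 the lowest.

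Per kb of exon, levels can be set against each other between genes. FEV was highest in all 8 groups, with means from 179 CPM per kb in ISL1-labelled WT to 999 CPM per kb in BFP-labelled PDX1-/-. GCH1 (99.3 to 213 CPM per kb) and DDC (53.8 to 269 CPM per kb) followed. DDC was below GCH1 in both WT groups and above it in BFP-labelled ISL1-/- and PDX1-/-. TPH1, the rate-limiting enzyme, ranged from 4.2 to 79.5 CPM per kb, the widest relative range over groups apart from TPH2. SLC18A1 exceeded SLC18A2 in every group, by 13 ± 4.79 against 4.41 ± 1.02 CPM per kb (SD, n = 2) in BFP-labelled WT and by 105 ± 2.57 against 3.41 ± 0.647 CPM per kb (SD, n = 3) in BFP-labelled PDX1-/-. TRPA1 had 1.02 to 3.43 CPM per kb, and TPH2 at most 0.0291 CPM per kb.

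By mean CPM, the 8 groups fell in similar orders for TPH1, DDC, SLC18A1, LMX1A and FEV, with BFP-labelled PDX1-/- first for all 5. For TPH1 the means were 450 CPM in BFP-labelled PDX1-/-, 181 in ISL1-/- and 129 in PAX6-/-, then 91.2, 67.9 and 47.3 in ISL1-labelled PDX1-/-, ISL1-/- and PAX6-/-, and 42.9 and 23.8 in BFP-labelled and ISL1-labelled WT. Neighbours whose libraries overlapped for TPH1 were BFP-labelled ISL1-/- and PAX6-/-, ISL1-labelled PDX1-/- and each of its neighbours, and ISL1-labelled PAX6-/- and BFP-labelled WT. ISL1-labelled WT was lowest for TPH1, DDC, SLC18A1 and FEV. GCH1 began with PDX1-/- and WT, both BFP-labelled and overlapping. TRPA1 was highest in ISL1-labelled WT, which overlapped BFP-labelled ISL1-/-.

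The genes whose pattern was most like a member's were found by Pearson's r of mean log2 CPM over the 8 groups, among 611 genes that varied. For TPH1 they were BRINP3-DT (0.993), CNTNAP2 (0.992), BRINP3 (0.990), LINC02714 (0.980) and ARPP21 (0.980). For SLC18A1 they were CNTNAP2 (0.993), BRINP3 (0.977), NPY1R (0.976), THSD4 (0.974) and LINC02714 (0.973). For FEV they were LINC02714 (0.977), BRINP3-DT (0.975), ARPP21 (0.975), PTHLH (0.961) and CNTNAP2 (0.958). Over the same groups, r of TPH1 with other members was 0.980 for SLC18A1, 0.970 for FEV, 0.934 for LMX1A, 0.927 for DDC, 0.750 for ADRA2A, 0.355 for GCH1, 0.210 for TRPA1, 0.157 for SLC18A2 and -0.647 for TPH2, at its 0 to 17 counts per library. The 8 group means share libraries and scaling, and these values are a description. BRINP3 had 18.6 and 31.4 CPM in BFP-labelled WT, 97.2 to 182 CPM in ISL1-/-, 57.6 to 115 CPM in PAX6-/- and 269 to 398 CPM in PDX1-/-. In ISL1-labelled libraries BRINP3 had 9.36 and 9.74 CPM in WT and at most 51 CPM elsewhere.

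Several genes of serotonin breakdown and reuptake fell in the knockouts. Of 7 tested in this list of 8, 3, 2 and 3 were called lower in ISL1-/-, PAX6-/- and PDX1-/- against BFP-labelled WT, and 0 higher. Of all genes, 3.92%, 3.26% and 5.65% were called lower. SLC6A4, the serotonin reuptake transporter, had 28.1 and 17.7 CPM in BFP-labelled WT, 1.7 to 2.54 CPM in ISL1-/-, 0.397 to 1.07 CPM in PAX6-/- and 1.38 to 2.45 CPM in PDX1-/-. SLC6A4 fell, with log2 fold changes of -3.44 (adjusted p 0.00169), -5.15 (adjusted p 0.000156) and -3.58 (adjusted p 0.0011), opposite in sign to TPH1. MAOA, which degrades serotonin, had 24.8 and 21.1 CPM in WT and fell by 1.90 (adjusted p 0.000499) in ISL1-/- and 0.96 (adjusted p 0.0442) in PAX6-/-. In PDX1-/- MAOA had 21.1 to 26 CPM and differed by 0.07 (adjusted p 0.926). MAOB fell by 1.63 (adjusted p 0.0135) in PDX1-/-. SLC22A3, a low-affinity monoamine transporter, fell by 1.95 in ISL1-/- (adjusted p 0.00729) and 2.21 in PDX1-/- (adjusted p 0.00245). The median over the list was -0.77, -0.85 and -0.05.

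**Figure D4:**
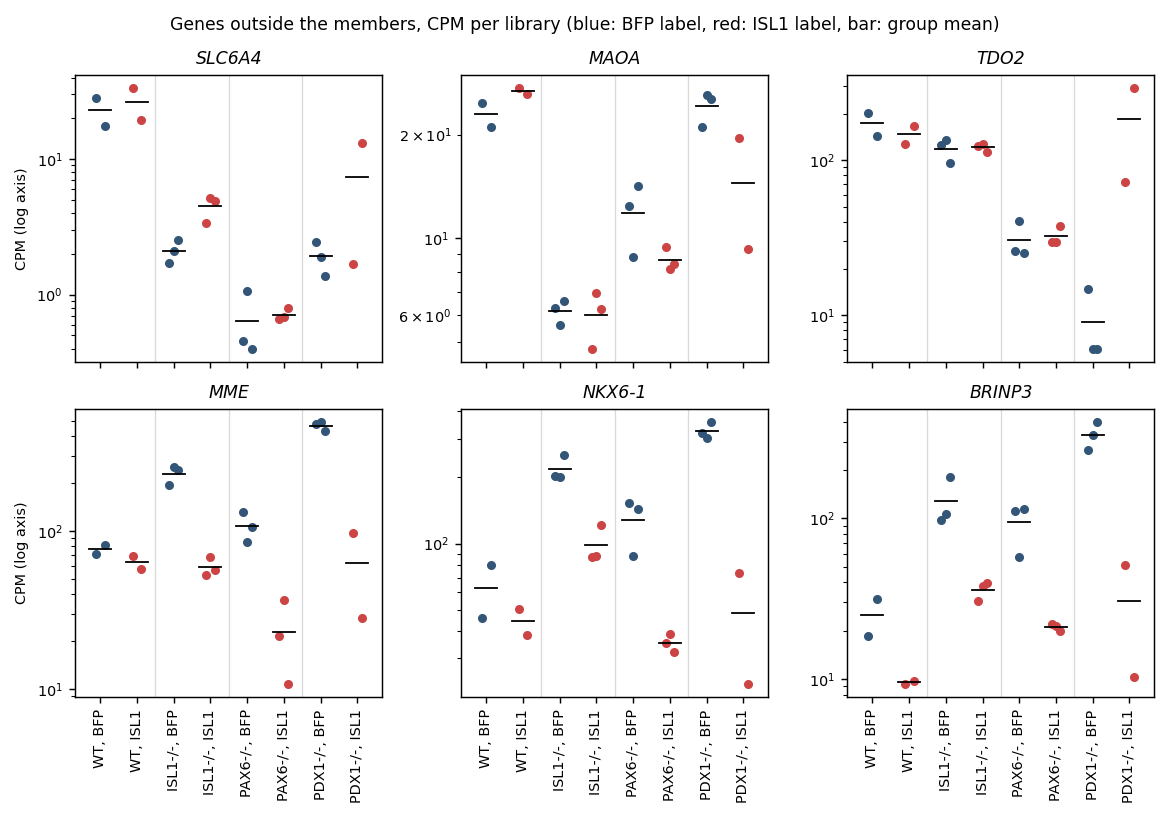
Each panel plots 1 gene outside the 10 members in CPM on a log axis, with a point per library and a bar at the group mean, for BFP-labelled (blue) and ISL1-labelled (red) libraries. SLC6A4 is at 17.7 CPM or above in the 4 WT libraries and at 13.1 CPM or below in all knockout libraries, and BRINP3, MME and NKX6-1 are highest in BFP-labelled PDX1-/-.

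Tryptophan can be taken up or diverted from serotonin. Of 5 genes tested in this list of 7, 0, 1 and 2 were called lower in ISL1-/-, PAX6-/- and PDX1-/- against BFP-labelled WT, and 0 higher. Of all genes, 3.92%, 3.26% and 5.65% were called lower in these comparisons, and 1.67%, 2.25% and 4.03% higher. TDO2, which opens the kynurenine pathway, had 203 and 143 CPM in BFP-labelled WT, 96.7 to 135 CPM in ISL1-/-, 25.4 to 40.6 CPM in PAX6-/- and 6.05 to 14.8 CPM in PDX1-/-. TDO2 fell by 2.50 (adjusted p 0.00386) in PAX6-/-, and its log2 fold change was -4.27 (adjusted p 0.000135) in PDX1-/-. With the vector TDO2 rose by 4.36 (adjusted p 7.33e-05) in PDX1-/-, to 72.7 CPM in replicate 2 and 295 CPM in replicate 4. SLC16A10, an aromatic amino acid transporter, fell by 1.68 (adjusted p 0.0335) in PDX1-/-. In the list of 7 further cofactor genes, 0 were called in any knockout against WT or any vector effect. For the vector effects their medians were -0.02, -0.33, 0.39 and 0.43. Serotonin receptors were low, summing to 10.6 to 23.9 CPM over 14 genes in all libraries. Of 10 tested, 0, 1 and 1 were called higher and 1, 1 and 2 lower in ISL1-/-, PAX6-/- and PDX1-/- against WT. The shares of all genes given above apply to these counts as well.

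Other transcription factors of serotonergic and endocrine cells, 12 genes, included 2, 3 and 6 called higher in ISL1-/-, PAX6-/- and PDX1-/- against BFP-labelled WT, and 0 lower. Of all genes, 1.67%, 2.25% and 4.03% were called higher. Their medians were 0.76, 0.80 and 1.12. NKX6-1, a homeodomain factor of beta cells and their progenitors, rose by 1.80 (adjusted p 0.0103) in ISL1-/- and 2.38 (adjusted p 0.00142) in PDX1-/-. MNX1 rose by 1.82 (adjusted p 0.00545) and 2.27 (adjusted p 0.00104) in the same knockouts. INSM1, a pan-endocrine zinc finger factor, rose by 1.91 (adjusted p 0.0102) in PDX1-/-. In PAX6-/- the calls were SOX4 (0.81, adjusted p 0.0185), NKX2-2 (1.95, adjusted p 0.0187) and LMX1B (1.55, adjusted p 0.0412). With the vector, 0, 0, 2 and 6 of the 12 were called lower in WT, ISL1-/-, PAX6-/- and PDX1-/-, and 0 higher. The share of all genes called lower was 0%, 0.131%, 0.185% and 4.33%. NKX6-1 fell by 1.86 (adjusted p 0.0209) in PAX6-/- and 2.76 (adjusted p 0.000707) in PDX1-/-.

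Of 12 other genes reported in enterochromaffin cells, 1, 2 and 4 were called higher in ISL1-/-, PAX6-/- and PDX1-/-, and 0, 0 and 1 lower. Among all genes, 1.67%, 2.25% and 4.03% were called higher, and 3.92%, 3.26% and 5.65% lower. MME, a membrane peptidase, rose by 1.59 (adjusted p 0.048) in ISL1-/- and 2.59 (adjusted p 0.00258) in PDX1-/-. With the vector, 0, 1, 1 and 4 of the 12 were called lower in WT, ISL1-/-, PAX6-/- and PDX1-/-, and 0, 0, 0 and 1 higher. Of all genes, 0%, 0.131%, 0.185% and 4.33% were called lower. MME fell, with log2 fold changes of -1.96 (adjusted p 0.0348) in ISL1-/-, -2.22 (adjusted p 0.0209) in PAX6-/- and -2.89 (adjusted p 0.00167) in PDX1-/-. TRPC4, the gene called higher, rose by 1.94 (adjusted p 0.00241) with the vector in PDX1-/-. SCN3A, a sodium channel subunit, rose by 2.40 (adjusted p 0.00916) in PAX6-/-. SLC38A11 and KCNJ6 rose by 1.64 (adjusted p 0.00478) and 1.09 (adjusted p 0.00799) in PDX1-/-. Genes of catecholamine and histamine synthesis, which share DDC or the vesicle transporters with other monoamines, summed to 24.3 to 104 CPM over 8 genes. Of these, 0, 1 and 0 were called higher and 1, 1 and 2 lower in the same 3 comparisons.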

How the data were processed

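RNA of 21 libraries was read as a table of gene counts. Reads were aligned with STAR 2.7.11b to GRCh38 and counted with featureCounts 2.1.1, per the submitters' processing notes. The counts are used as deposited by the authors, unnormalized. The annotation release, strand setting and treatment of multiply mapped reads are not given in the sources used here. Gene symbols, exon lengths and positions are those of the table, per the file headers. Of 62700 genes 62699 were used, because the ANK2 entry is broken over several lines. The smallest chi-square per degree of freedom between replicates was 13.2, so no pair agreed within sampling noise.

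Counts were tested in edgeR 4.0.16 (R 4.3.3) by its quasi-likelihood F test after TMM scaling. A single model held all libraries, with 8 group coefficients and without a block. The filterByExpr filter (minimum count 10, minimum total 15) left 25884 genes, over which p-values were adjusted by Benjamini-Hochberg in each of 16 comparisons. Log2 fold changes have a prior count of 0.125. Labels name no separate differentiations, so p-values measure the spread between these samples, which may be technical in part. Alternatives were DESeq2 1.42.0, limma 3.58.1 (voom with sample quality weights), RLE scaling, no filter, only the groups compared, replicate blocks and leaving out each library. The fitting script was tested on simulated data.

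Replicate numbers are those of the sample descriptions, which differ from the title numbers for 3 libraries. Numbers were taken to pair the samples of a comparison where same-numbered deviations from the group means correlated above 0.1 in each of 3 pairs. Only the vector effect in PAX6-/- met this rule, at 0.155 to 0.391. The vector effect in ISL1-/-, at 0.099 to 0.293, narrowly missed it. Deviations within a group sum to 0, so the 3 values are not independent. From each list up to 3 genes were named per comparison, those of lowest adjusted p among called genes that averaged 10 CPM or more in the higher group. Genes most like a member were the 5 of highest r among 611 genes that reached 5 CPM in the mean of some group and an SD of 1 (log2) over group means. CHGA was added after its values were seen. The members and lists were chosen with earlier results of these data known.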

Additional observations from a re-analysis of the deposited data

How the results depend on the processing

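Counts of members called are given in the order WT, ISL1-/-, PAX6-/- and PDX1-/- for the 4 vector effects, then ISL1-/-, PAX6-/- and PDX1-/- against WT among BFP-labelled and among ISL1-labelled libraries. The reported counts were 0, 1, 1 and 6, then 4, 1 and 5, then 1, 1 and 0. DESeq2 gave 1, 2, 3 and 6, then 6, 2 and 6, then 3, 2 and 2 members. RLE scaling gave the reported count of members in every comparison. Without the filter the counts of members were 0, 2, 3 and 6, then 6, 2 and 6, then 1, 2 and 0. Limma gave 2, 8, 8 and 0, then 8, 7 and 7, then 7, 5 and 0 members. Fits of only the groups compared gave 2, 7, 0 and 0, then 8, 5 and 6, then 9, 0 and 0 members. The replicate block by description number gave 0, 5, 6 and 3, then 6, 5 and 7, then 4, 5 and 2 members, and the replicate block by title number 0, 2, 1 and 7, then 2, 0 and 5, then 1, 1 and 1. Of these, only the vector effect in PAX6-/- met the rule for pairing, and elsewhere the numbers were not taken to pair samples. ISL1-labelled PDX1-/- replicate 4 has a description number of its own, so the block by that number fits it by itself. Without both libraries of high mitochondrial share, chosen after seeing the data, the counts of members were 2, 8, 8 and 7, then 7, 7 and 7, then 7, 5 and 5. The counts in this section stand without the share of all genes called, which moved with the setting too. For the vector effect in WT that share was 0.027% as reported, 0.251% with DESeq2 and 2.01% with limma. For the vector effect in PAX6-/- it was 0.355% as reported and 2.23% with the replicate block by description number. A changed count is therefore not by itself a result about the members.

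Between BFP-labelled knockouts the reported counts of members were 0 (ISL1-/- against PAX6-/-), 0 (ISL1-/- against PDX1-/-) and 3 (PAX6-/- against PDX1-/-). DESeq2 gave 1, 0 and 3 members, limma 3, 7 and 6, only the groups compared 2, 6 and 5, the replicate block by description number 3, 3 and 4, the replicate block by title number 1, 0 and 3, and the fit without both libraries 3, 5 and 6. For the differences of vector effects in ISL1-/-, PAX6-/- and PDX1-/- from WT, each reported as 0 members, DESeq2 and no filter each gave 0, 0 and 1. Limma gave 1, 3 and 0 members, only the groups compared 2, 0 and 0, both replicate blocks 0, 0 and 0, and the fit without both libraries 1, 1 and 1.

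Leaving out each of the 21 libraries in turn gave 0, 0 to 4, 1 to 6 and 2 to 8 members for the vector effects, 0 to 6, 0 to 3 and 4 to 7 among BFP-labelled and 0 to 4, 0 to 3 and 0 to 6 among ISL1-labelled knockouts against WT. It gave 0 to 2, 0 to 3 and 0 to 4 members between knockouts, and 0, 0 and 0 to 5 for the differences. The reversed values were both without ISL1-labelled PDX1-/- replicate 2. LMX1A in PDX1-/- against ISL1-labelled WT was then -1.05 (adjusted p 0.0299), against 1.17 without replicate 4, and TRPA1 in the vector effect in PDX1-/- was -2.51 (adjusted p 0.000474), against 0.91 without replicate 4. Over single members, other settings than leaving out a library kept the direction and the side of the threshold in 1022 values, moved 212 past the threshold and 22 off it. RLE scaling moved the median of all genes by less than 0.1. The cause of these changes was not tested. TPH2 was the only member at or under 3 counts in any library.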
